A study of Homo sapiens with 6 samples.

Results

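The 10 genes described here encode the main enzymes that remove peroxide and superoxide from human cells: the peroxiredoxins PRDX1 to PRDX6, the repair enzyme sulfiredoxin (SRXN1), the superoxide dismutases SOD1 and SOD2, and CCS, the chaperone that delivers copper to SOD1. They were chosen by name, and all 10 were found among the 23686 genes of the files and among the 14582 genes with enough reads to test. RNA had been sequenced from 6 samples of HEK293, an established line derived from human embryonic kidney, all carrying green fluorescent protein (GFP) and all grown in high-glucose DMEM with serum. For the ROS co-culture group (3 samples), GFP-positive cells shared the dish for 10 h with partner HEK293 cells (+DAAO) that made reactive oxygen species (ROS), with D-alanine at 25 µM, and were then isolated by fluorescence-activated sorting. The control group held 3 samples of sorted GFP-positive cells labelled as wild-type controls. The name DAAO usually stands for D-amino acid oxidase, whose reaction with D-amino acids yields hydrogen peroxide. Reads of DAO, the human gene of that enzyme, were 0 in all 6 libraries, and the species of the DAAO that the partner cells carried is not given. The treatment protocol is worded alike for both groups, and it leaves unsaid if D-alanine or any partner cells were given to the controls. The labels name neither clones nor separate cultures, so p-values measure the spread between these samples, which may be technical.

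Superoxide dismutases turn superoxide into hydrogen peroxide and oxygen, SOD1 with copper and zinc mainly in the cytosol and SOD2 with manganese in the mitochondrial matrix. Peroxiredoxins then reduce the peroxide with a reactive cysteine, which is recycled by thioredoxin for most of the family and by glutathione for PRDX6. When peroxide oxidises that cysteine further, the typical peroxiredoxins are inactivated, and sulfiredoxin restores them. PRDX1, PRDX2 and PRDX6 work mainly in the cytosol, PRDX3 in mitochondria, PRDX4 in the endoplasmic reticulum, and PRDX5 in mitochondria and peroxisomes.

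PRDX1 to PRDX4 form the typical class, and the stretch of coding sequence around the reactive cysteine is shown to make the relation between these 4 transcripts visible. The 30 bases come from the principal transcripts of GENCODE release 29 (GRCh38), written 5′ to 3′ in the sense of the transcript, with the cysteine codon in capitals.
PRDX1: ttcacctttgtgTGCcccacggagatcatt
PRDX2: ttcacttttgtgTGCcccaccgagatcatc
PRDX3: ttcacctttgtgTGTcctacagaaattgtt
PRDX4: ttcacatttgtgTGTccaactgaaattatc
The PRDX1 stretch lies in exon 3 on the minus strand at chr1:45515743-45515772 and encodes cysteine 52, and that of PRDX2 lies in exon 3 on the minus strand at chr19:12801005-12801034 and encodes cysteine 51. The PRDX3 stretch joins exons 3 and 4 across an intron between chr10:119173845-119174452 on the minus strand (cysteine 108 of the precursor), and that of PRDX4 joins exons 2 and 3 between chrX:23671645-23675017 on the plus strand (cysteine 124 of the precursor). Of the 30 bases, 22 were the same in all 4 genes. PRDX1 and PRDX2 differed at 3 of them, the fewest of any of these genes, and PRDX2 and PRDX3 at 8, the most. The longest run shared exactly by the transcripts of any of the 10 genes was 17 bases, between PRDX1 and PRDX4. Processed pseudogenes shared 50-base words with PRDX1, PRDX2, PRDX3 and PRDX6, at most 43 words (PRDX2), and reads that fit several places equally well were not counted per gene.

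The files held between 19091085 and 36250314 gene-assigned reads per library, and levels are given as CPM, the reads of a gene relative to the library total, which was scaled by trimmed means of M-values (TMM). The HEK293 markers PAX2, LHX1, NEFL, NEFM, VIM and CDH2 were all detected. Their summed level was 1438 to 1490.1 CPM in the controls and 1823 to 1880.2 CPM in co-culture. That rise was carried mainly by VIM, an intermediate filament gene (967 ± 38.2 against 1279 ± 34.1 CPM, SD, n = 3 each). Of these 6 markers, 5 had a higher and 1 (PAX2) a lower estimate in co-culture. VIM alone had an edgeR adjusted p under 0.05 (log2 fold change 0.40, edgeR adjusted p 0.00793). Markers of blood, liver, islet, heart and endothelial cells together reached at most 0.333 CPM in any library, with CD3E and INS at 0 in all 6. The part of these markers in the results was not tested. The libraries also differed in how many reads lay on the unexpected strand of well-covered genes: a median of 0.127% and 0.216% in co-culture libraries 2 and 3, and 1.59% to 1.79% in the other 4 libraries. The low class held co-culture samples only. A model with a term for the class, called the batch term here, estimates the group difference from co-culture library 1 and the 3 controls alone, and its values are given where they matter.

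None of the 10 genes changed in co-culture by edgeR's quasi-likelihood test with Benjamini-Hochberg adjustment at 0.05. Over all tested genes the share past that threshold was 4.83% (704 genes, with 2.66% higher and 2.17% lower). That share ran from 0.44% (without control 2) to 20.8% (without control 1) when 1 library was left out, with 0 members past the threshold each time. At an unadjusted p under 0.05 there was 1 member, PRDX6, against 23.2% of all genes, and DESeq2 and limma-voom also gave 0 members past the adjusted threshold and 1 at the unadjusted one. With scaling by total counts the 1 member was PRDX4 (edgeR unadjusted p 0.0473), and PRDX6 stood at 0.0603. The members under 0.05 also changed when 1 library was left out. Without control 1 there were 2, PRDX6 and SRXN1 (edgeR unadjusted p 0.0207 and 0.0184). Without control 3 the 1 member was PRDX1 (edgeR unadjusted p 0.0232), and without co-culture library 1 or 3 there were 0. Of the members, 6 had a higher and 4 a lower estimate, and their median log2 fold change was 0.04, beside -0.00 for all tested genes. Their median absolute log2 fold change was 0.09, beside 0.13 for all tested genes. For 3 members (PRDX4, PRDX6 and SRXN1) the groups did not overlap in CPM, and the share over all genes was 29.3%. In the 95% intervals of the fold changes, the lowest bound was 0.818-fold (PRDX5) and the highest 1.25-fold (PRDX1). With the batch term, the lowest and highest bounds were 0.694-fold and 1.35-fold. In that fit 0 members passed, and the share over all genes was 0.199%. In bulk RNA, a change in every cell and a change in some of the cells cannot be told apart.

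**Figure D1:**
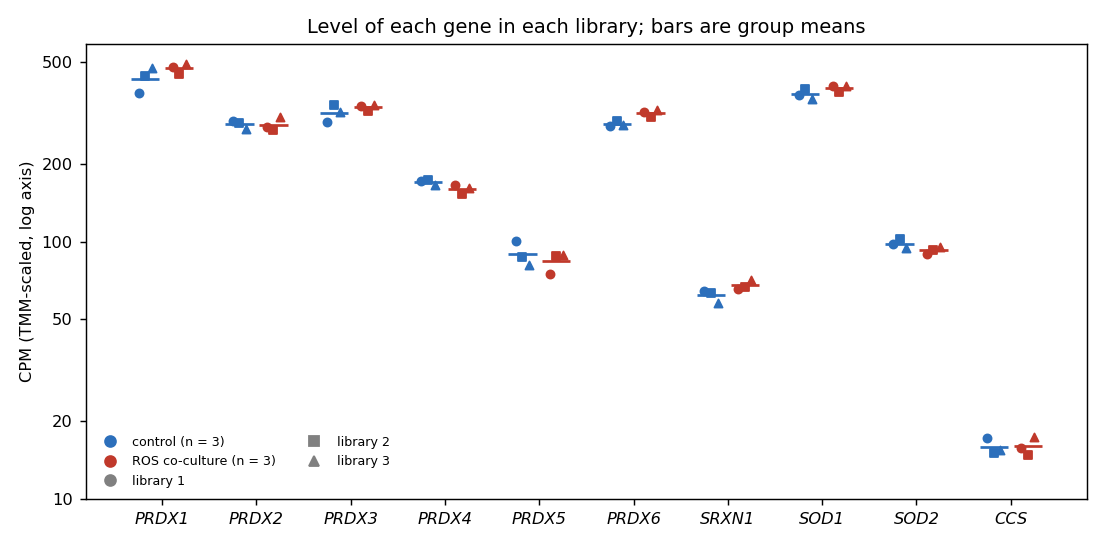
CPM (TMM-scaled, log axis) of the 10 genes in each library, controls in blue and ROS co-culture in red, with marker shapes for libraries 1 to 3 and bars at the group means. On this axis the group means of each gene lie close together, as for PRDX2 at 286 and 285 CPM. The largest fold change is that of PRDX6, at 287 and 317 CPM. The groups of PRDX4, PRDX6 and SRXN1 do not overlap.

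**Figure D2:**
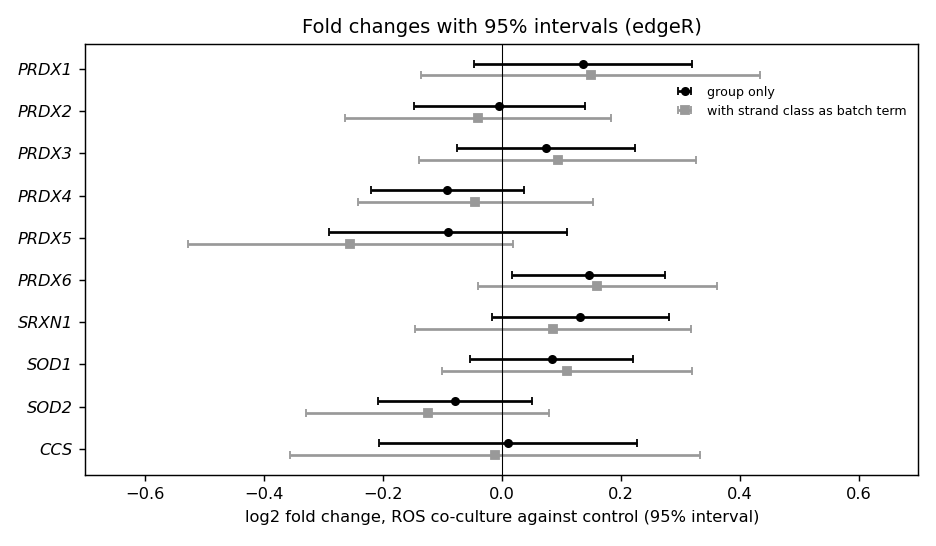
Log2 fold change of each gene, ROS co-culture against control, with its 95% interval, from the fit with group only (black circles) and with the batch term for strand class (grey squares). In the fit with group only, the interval of PRDX6 alone lies above 0 before adjustment for multiple tests, and with the batch term all 10 intervals include 0.

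PRDX1 is a cytosolic peroxiredoxin of the typical class. Its control libraries 1, 2 and 3 had 378, 440.2 and 474 CPM, and its co-culture libraries 478, 450.1 and 492 CPM. Control 1 was the lowest of the 6, and the groups overlapped through control 3. The co-culture mean of PRDX1 was higher by 0.14 on the log2 scale (SE 0.08, edgeR adjusted p 0.355). It was 0.05 without control 1 and 0.21 without control 3, and the adjusted p stayed above the threshold in both fits (0.546 and 0.147).

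PRDX2, the second cytosolic enzyme of the typical class, had 294, 289 and 275 CPM in the controls and 278, 271 and 306 CPM in co-culture. The co-culture libraries held both the highest and the lowest value. Its log2 fold change was -0.00 (SE 0.07, edgeR adjusted p 0.977), with a 95% interval from -0.15 to 0.14.

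PRDX6, which has a single reactive cysteine and also acts on phospholipids, had 281, 295 and 284 CPM in the controls. In co-culture it had 320.4, 305 and 326 CPM, so all 3 co-culture libraries lay above all 3 controls. Its estimated log2 fold change was 0.15 (SE 0.06, 95% interval 0.02 to 0.27), and it missed the threshold after adjustment (edgeR adjusted p 0.167, unadjusted p 0.0305). The edgeR unadjusted p of PRDX6 rose above 0.05 in several other fits, such as 0.0603 with scaling by total counts and 0.0847 without co-culture library 3. Its estimate was higher in co-culture under all 15 other settings tried, from 0.11 to 0.17, with adjusted p-values from 0.0793 to 0.493. The genes whose pattern over the 6 libraries was nearest to that of PRDX6, among 5379 candidates with a mean of at least 50 CPM, were ATF6, GPD2, ATP6AP2, TCTN3 and NEDD4L. Their root mean square differences from PRDX6 in centred log2 CPM were 0.021 to 0.023, and their own log2 fold changes lay between 0.11 and 0.14 with edgeR adjusted p-values from 0.160 to 0.287. Because these genes were picked for their nearness over the same libraries, fold changes close to that of PRDX6 follow from the choice.

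SRXN1, the sulfiredoxin that repairs the typical peroxiredoxins, had 64.4, 63.4 and 57.7 CPM in the controls and 65.6, 66.5 and 70.9 CPM in co-culture. The groups did not overlap, but the gap between the highest control and the lowest co-culture library was about 1 CPM. For SRXN1 the log2 fold change was 0.13 (SE 0.07, edgeR adjusted p 0.271, 95% interval -0.02 to 0.28). Without control 1 it was 0.16 (edgeR adjusted p 0.0733), the lowest adjusted p over the 15 other settings. It was 0.08 without control 3 (edgeR adjusted p 0.535) and 0.09 with the batch term, where the adjusted p was highest at 0.770.

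In mitochondria, PRDX3 had 292, 338 and 318 CPM in the controls and 337, 321 and 340.2 CPM in co-culture. Control 1 was again the lowest library and the other 5 overlapped. The log2 fold change was 0.07 (SE 0.07, edgeR adjusted p 0.550), 0.02 without control 1, 0.13 without control 2 and 0.04 with scaling by total counts.

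PRDX5, the atypical family member of mitochondria and peroxisomes, was the least steady of the peroxiredoxins in co-culture. Its controls had 100.4, 87.0 and 81.2 CPM and its co-culture libraries 75.0, 87.9 and 88.9 CPM. Control 1 was the highest and co-culture library 1 the lowest of the 6, while the other 4 lay between them. The log2 fold change was -0.09 (SE 0.09, edgeR adjusted p 0.585). It was 0.00 without control 1, -0.01 without co-culture library 1, -0.16 without control 3 and -0.25 with the batch term (edgeR adjusted p 0.432).

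PRDX4, the peroxiredoxin of the endoplasmic reticulum, had 171, 174 and 166 CPM in the controls and 165, 153 and 162 CPM in co-culture. All 3 co-culture libraries lay below the controls, the highest of them by less than 1 CPM. For PRDX4 the log2 difference was -0.09 (SE 0.06, edgeR adjusted p 0.373), and its 95% interval ran from -0.22 to 0.04. Over the 15 other settings the difference ran from -0.13 with scaling by total counts to -0.04 with the batch term. It was -0.06 without co-culture library 2 and -0.11 without co-culture library 1.

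SOD1, the cytosolic dismutase, had 372, 390.5 and 357 CPM in the controls and 403, 381 and 402 CPM in co-culture. Co-culture library 2 lay below control 2, and the other co-culture libraries lay above all controls. For SOD1 the log2 fold change was 0.08 (SE 0.06, edgeR adjusted p 0.452), and 0.05 without control 3 or with scaling by total counts. It was 0.12 without control 2 and 0.11 with the batch term.

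SOD2, the mitochondrial dismutase, had 97.7, 102 and 94.4 CPM in the controls and 89.9, 92.9 and 95.5 CPM in co-culture, and the groups overlapped through control 3 and co-culture library 3. The log2 fold change was -0.08 (SE 0.06, edgeR adjusted p 0.451), -0.05 without control 2 and -0.12 with the batch term.

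CCS, the copper chaperone, had 17.2, 15.1 and 15.5 CPM in the controls and 15.8, 14.8 and 17.4 CPM in co-culture. The co-culture libraries held its highest and lowest values. Its log2 fold change was 0.01 (SE 0.10, edgeR adjusted p 0.965), and the SE is the largest of the 10.

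**Figure D3:**
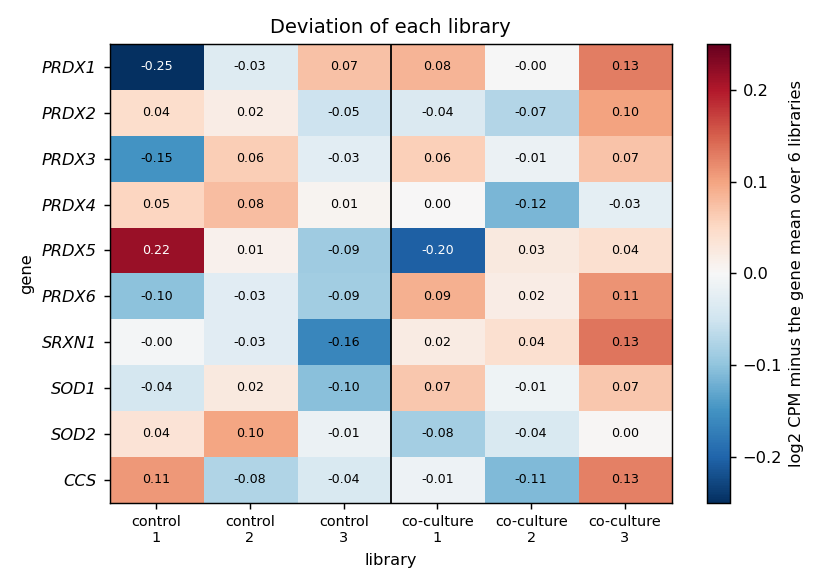
Log2 CPM of each gene in each library minus the gene's mean over the 6 libraries, shown as colour and number, controls to the left of the line. Control 1 is the lowest library for PRDX1, PRDX3 and PRDX6 and the highest for PRDX5. PRDX6 and SRXN1 are each below their mean in all 3 controls and above it in all 3 co-culture libraries.

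Members differed in how near their patterns over the libraries were. PRDX6 and SOD1 had the nearest patterns, with a root mean square difference of 0.040 in centred log2 CPM over the 6 libraries, and PRDX1 and PRDX5 the farthest, at 0.238. The 6 peroxiredoxins summed to 1580 ± 56.0 CPM in the controls and 1652 ± 63.8 CPM in co-culture (SD, n = 3 each), and their ranges overlapped (1517 to 1624 and 1588 to 1715 CPM). Within that sum, PRDX4 held 10.4% to 11.3% of the peroxiredoxin reads in the controls and 9.46% to 10.0% in co-culture, and PRDX6 held 17.8% to 18.5% and 19.0% to 19.4%. Neither share overlapped between the groups, while the shares of PRDX1, PRDX2, PRDX3 and PRDX5 did. None of these shares was tested, and in CPM the groups did not overlap for 29.3% of all tested genes.

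Levels of different genes were compared per kilobase (kb) of the principal transcript, in control cells. SOD1 was at 387 ± 17.2 and PRDX1 at 349 ± 39.4 CPM per kb (SD, n = 3 each), which did not differ beyond their spread. PRDX1 has 2 principal transcripts, and at the shorter one, 1021 bases, its level was 422 ± 47.6 CPM per kb, so these first places can change with the transcript chosen. PRDX2 followed at 290 ± 9.96 and PRDX3 at 199 ± 14.6 CPM per kb. PRDX4 and PRDX6, at 170 ± 4.22 and 164 ± 4.40 CPM per kb, were again neighbours within about their spread. PRDX5 stood at 100.3 ± 10.99, SRXN1 at 22.9 ± 1.34 and CCS at 11.2 ± 0.761 CPM per kb. SOD2 was not placed in this order, because its principal transcripts run from 990 to 14266 bases and its level accordingly from 99.1 down to 6.87 CPM per kb.

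Ratios of reads within a library do not depend on the scaling between libraries, and 5 of them were compared. For every 100 reads of SOD1 there were 26.2, 26.2 and 26.4 reads of SOD2 in controls 1, 2 and 3, and 22.3, 24.4 and 23.7 in co-culture libraries 1, 2 and 3. The controls were nearly equal, and all 3 co-culture libraries lay below them. The log2 ratio differed by -0.16, with an exact two-sided permutation p of 0.1, the smallest that 3 against 3 allows, and 0.5 after adjustment over the 5 ratios. Leaving out 1 library at a time gave differences from -0.19 to -0.13. The ratios of CCS to SOD1, PRDX3 to PRDX1 and PRDX2 to PRDX1 differed by -0.08, -0.07 and -0.15 (exact permutation p 0.4 each), and that of SRXN1 to PRDX1 by -0.01 (exact permutation p 1), and in these 4 the groups overlapped. Single libraries moved them: leaving out 1 at a time gave -0.15 (without control 2) to -0.02 (without control 1) for CCS to SOD1, -0.13 (without control 3) to -0.03 (without control 1 or 2) for PRDX3 to PRDX1, and -0.25 (without control 3) to -0.04 (without control 1) for PRDX2 to PRDX1.

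**Figure D4:**
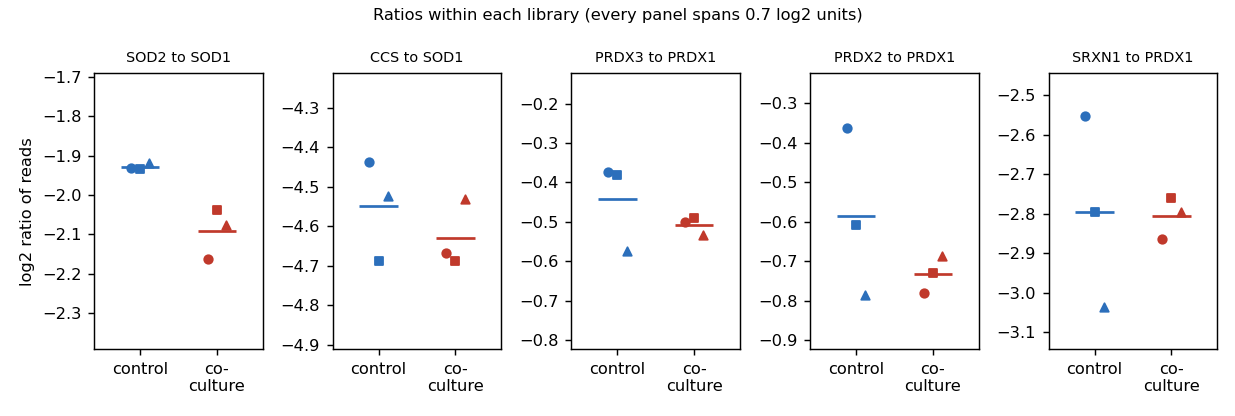
Log2 ratio of reads for 5 combinations of genes in each library, controls in blue and co-culture in red, with bars at the group means and the same span of 0.7 log2 units in every panel. The ratio of SOD2 to SOD1 is the one whose groups do not overlap, at -1.94 to -1.92 in the controls and -2.16 to -2.04 in co-culture.

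The other genes of the pathway were taken from 6 lists with 61 genes, of which 47 could be tested, 1 was higher, 2 were lower and 44 did not pass the threshold, beside 4.83% of all tested genes past it. At an unadjusted p under 0.05 there were 13 of the 47, beside 23.2% of all tested genes, so these counts lie near the background. The median of the 47 was -0.03. Of 12 thioredoxin and glutaredoxin genes, all tested and including TXNIP, an inhibitor of thioredoxin, 1 was lower and 0 higher. At an unadjusted p under 0.05 there were 2, and the median log2 fold change was -0.11. TXNRD2, the mitochondrial thioredoxin reductase that serves PRDX3 through thioredoxin 2, had 32.0, 33.4 and 33.1 CPM in the controls and 21.8, 20.9 and 24.8 CPM in co-culture. Every co-culture library lay well below every control, and TXNRD2 fell by 0.54 on the log2 scale (SE 0.08, edgeR adjusted p 0.00669). The mitochondrial thioredoxin TXN2 stood at 72.7 ± 0.866 against 67.9 ± 5.12 CPM (log2 fold change -0.10, edgeR adjusted p 0.426), with -0.04 without co-culture library 2 and -0.15 without library 3. In the cytosol, thioredoxin TXN stood at 138 ± 7.83 against 153 ± 8.66 CPM (0.15, edgeR adjusted p 0.201) and its reductase TXNRD1 at 219 ± 19.4 against 222 ± 1.14 CPM (0.02, edgeR adjusted p 0.892). The call for TXNRD2 was lost with the batch term (-0.59, edgeR adjusted p 0.159), when control 2 (-0.53, 0.0602) was left out, or the first (-0.51, 0.0542) or second (-0.49, 0.0657) library of the co-culture, and the estimate was below 0 under all 15 other settings.

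Of 12 other peroxide-removing and glutathione genes, 10 were tested and 0 passed in edgeR's test, with 3 at an unadjusted p under 0.05 and a median of 0.00. Catalase (CAT), the peroxisomal enzyme that breaks down peroxide, had a log2 fold change of 0.12 (edgeR adjusted p 0.347), with 0.20 under the batch term and 0.07 without control 2. GPX1, a selenium-containing glutathione peroxidase, had one of -0.20 (edgeR adjusted p 0.164), with -0.37 under the batch term (edgeR adjusted p 0.228) and -0.12 without co-culture library 1. Of 14 oxidases and oxidase subunits that produce superoxide or peroxide, 3 had enough reads to test (CYBA, CYBB and NOXA1), and 0 passed in edgeR's test, adjusted or not. Of 10 genes for copper supply and the extracellular dismutase, 9 were tested, 1 was lower and 0 higher, and the median was -0.15. Of the 9, 5 had an unadjusted p under 0.05, a larger share than the 23.2% of all tested genes. Estimates were lower for 7 of them and higher for 2, and the list was not tested as a set. SCO2, a copper chaperone of mitochondrial cytochrome oxidase, had 20.1, 23.7 and 22.5 CPM in the controls and 13.5, 16.6 and 15.9 CPM in co-culture, without overlap. SCO2 fell by 0.52 on the log2 scale (SE 0.10, edgeR adjusted p 0.0205). It overlaps other genes on both strands. Reads on the forward strand made up 22.4% to 23.1% of those over SCO2 in the controls and 25.6% to 33.3% in co-culture. The part of this difference in the fall of SCO2 was not tested. SCO2 lost its call with the batch term (-0.71, edgeR adjusted p 0.126) and without any of co-culture libraries 1, 2 and 3 or control 2 (-0.44, -0.58, -0.55 and -0.47). SOD3, the extracellular dismutase, had 0 reads on its strand in all 6 libraries, which allows up to 0.0828 to 0.157 CPM by counting error alone.

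Of 10 genes of thiol oxidation in the endoplasmic reticulum, all tested, 1 was higher and 0 lower, 2 had an unadjusted p under 0.05, and the median was -0.01. ERO1A, listed under its older name ERO1L, is an oxidase that produces peroxide in the compartment of PRDX4. It had 91.6, 103.9 and 95.2 CPM in the controls and 119, 116 and 117 CPM in co-culture, and the groups did not overlap. ERO1A rose by 0.28 on the log2 scale (SE 0.06, edgeR adjusted p 0.0313). Its call was lost with the batch term (0.30, edgeR adjusted p 0.279) and in the fits without co-culture library 1, 2 or 3 or control 2 or 3, at 0.27, 0.29, 0.28, 0.33 and 0.26. Of the sestrins, stress-induced genes that regulate growth signalling, 0 of 3 passed in edgeR's test and 1 had an unadjusted p under 0.05.

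**Figure D5:**
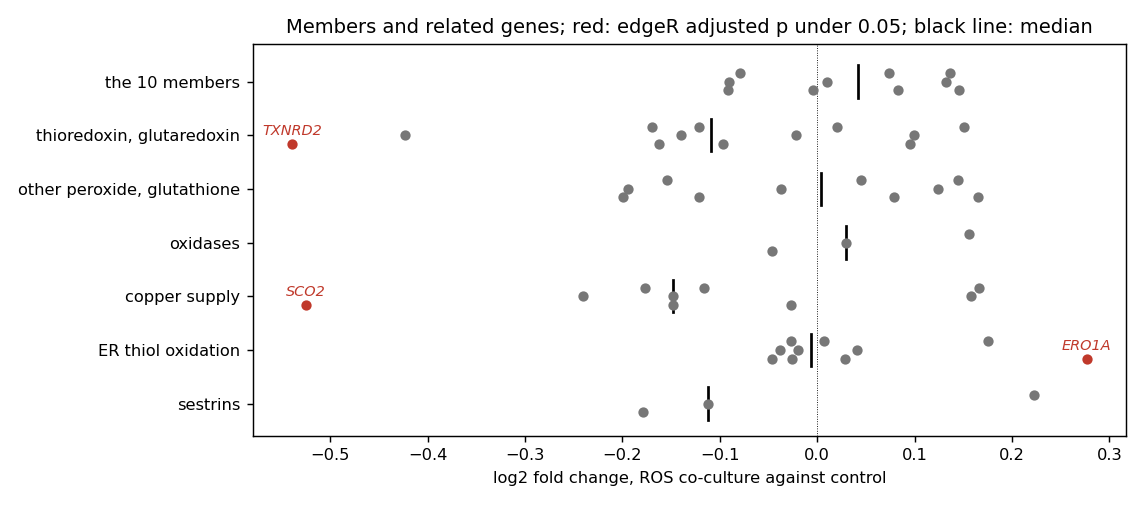
Log2 fold change of the 10 members and of the tested genes of each list, ROS co-culture against control, 1 point per gene, red where the edgeR adjusted p was under 0.05, with a black line at each median. The members lie between -0.09 and 0.15, and the 3 red points are TXNRD2, SCO2 and ERO1A.

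Reads on the forward strand, where a stranded library should hold few, were, among the 10 members, most frequent at SOD1. They made up 3.58% to 3.92% in the controls and co-culture library 1, and 0.471% and 0.621% in co-culture libraries 2 and 3. PRDX1 overlaps MMACHC on the opposite strand, and counting without regard to strand dropped between 105 and 193 of its reads per library. Under that counting its log2 fold change was 0.14, as in the stranded counts. SRXN1 shares 84.7% of its 50-base words with AL121758.1, a same-strand gene model that overlaps it in GENCODE and is not listed in the count files. CCS shares 15.5% with its opposite-strand neighbour CCDC87. PRDX1 shares 28.6% of its words with other genes, mostly MMACHC, and PRDX2 shares 26.0%, mostly with AC018761.2 on the opposite strand. HOOK2 also overlaps PRDX2, on the same strand.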

How the data were processed

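Libraries were made with a stranded mRNA kit, per the labels' protocols. FastQC, STAR 2.53a (as written there) and build hg18 are named in the submitters' processing notes, and the annotation release is not given in the sources used here. The deposited files hold raw read counts per gene in 3 strand columns, per the layout of the files. Counts on the reverse strand (column 4) were used. The 4 summary lines, 24.2% to 28.5% of reads, were left out. One file belongs to each library. A chi-square over genes between libraries of the same group (4.73 to 18.5 per degree of freedom) showed no repeated library within either group. Libraries of different groups were not compared in this way.

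The 3 co-culture libraries were compared with the 3 controls in R 4.3.3 with edgeR 4.0.16, in a model that held nothing but the group: filterByExpr (minimum count 10), TMM scaling, robust quasi-likelihood F test, Benjamini-Hochberg adjustment over all tested genes. The SE is |log2 fold change| over √F, and 95% intervals use the t quantile. One read was worth 0.0276 to 0.0524 CPM. Alternatives used DESeq2 1.42.0, limma 3.58.1 and others. GENCODE release 29 (GRCh38) served for sequences, transcript lengths and overlaps only, since the builds differ. For the genes named: all members, list genes past the threshold, TXN, TXN2, TXNRD1, TXNRD2, CAT and GPX1, and the 5 genes nearest to the member with the smallest p. VIM was named after its values were seen. The members and lists were chosen with earlier results of these data known. One gene of the HEK293 marker list is not reported here, and the summed level leaves it out.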

Additional observations from a re-analysis of the deposited data

How the results depend on the processing

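Under 15 other settings, 0 members passed the adjusted threshold, and 139 of the 150 member values kept their direction. The 11 that changed sign were close to 0 and belong to PRDX2, CCS and PRDX5. PRDX2 stood at 0.0084 with counts regardless of strand. CCS stood at -0.025 with total counts and -0.012 with the batch term. Leaving out 1 library at a time gave -0.056 to 0.032 for PRDX2, -0.058 to 0.068 for CCS and -0.157 to 0.00018 for PRDX5. TXNRD1, recomputed like the other list genes after the values had been seen, stood at -0.012 with total counts and at -0.051 to 0.068 when 1 library was left out. For the ratio of SRXN1 to PRDX1 that range was -0.132 (without control 3) to 0.110 (without control 1). SCO2 kept only 1 to 6 reads per library in the counts regardless of strand and was not tested there. The count of genes past the threshold depended on single libraries, and the cause was not tested: it was 704 as reported, 65 (without control 2) to 3069 (without control 1) when 1 library was left out, 164 with the replicate block and 29 with the batch term. DESeq2 called 1022 genes. Scaling by total counts moved the share of higher calls from 55.1% to 35.1%. Same-numbered libraries did not deviate together (correlations -0.069, -0.189 and -0.180), so the numbers show no pairing. With the replicate block 0 members passed, and ERO1A had an edgeR adjusted p of 0.0966.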
